A study of Homo sapiens with 12 samples.

Results

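U373 cells grown in indirect co-culture with U87-MG cells were compared with U373 cells grown alone. Both are long-established lines from human glioblastoma (GBM). The comparison used the 3 U373 co-culture arrays and the 3 U373 monoculture arrays, which were all the arrays with these titles among the 12 of the series. The other 6 arrays, 3 of U87-MG monoculture and 3 of U87-MG co-culture, served to estimate the spread and to compare the response of the partner line. All 4 groups were plated in six-well Transwell plates in DMEM with 10% fetal bovine serum and received no further treatment. The insert (1 ml) always held the U373 cells and the well below it (2 ml) the U87-MG cells, with a membrane of 0.4 µm pores between them. After 3 h of adhesion the chambers of the co-cultures were put together for 72 h, and monocultures were also given 3 ml of medium. The labels call the 3 arrays of a group biological replicates. They do not say whether replicates with the same number were cultured together. A monoculture thus differed from a co-culture both in the presence of the other line and in the number of cells that shared 3 ml of medium, and these 2 differences cannot be told apart.

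Tumor cells that share medium can signal to each other through secreted cytokines. Interleukin-1 and tumor necrosis factor act through receptors that lead to the NF-kB transcription factors, which are held in the cytoplasm by inhibitor proteins until those are degraded. NF-kB then switches on chemokines that attract leukocytes, adhesion molecules and its own inhibitors, and glioma cells are a known source of such chemokines. Several of these genes also respond to growth factors, to low oxygen and to stress of the endoplasmic reticulum.

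Levels are the deposited array intensities, which were variance-stabilized, taken to be natural logs and converted to a log2 scale. If that base holds, a difference of 1 is about a doubling of intensity for bright genes. Near background such a scale is not a plain logarithm, and a difference there is not an exact ratio. A gene was above background on an array when a probe of it lay above the mode of the array plus 3 SD, a limit of 4.88 to 5.56 on the 6 U373 arrays. Of 18666 genes with a probe named for a single gene, 10573 exceeded this limit on 3 or more of the 12 arrays and were tested. Of these, 8370 exceeded it on each of the 6 U373 arrays and 675 on no U373 array. Arrays carry no read depth, and their number limits the precision here: the median standard error of a log2 difference was 0.171, with 14.9 degrees of freedom. Levels of the tested genes correlated at 0.9714 to 0.9914 between the 6 U373 arrays, lowest between monoculture replicate 2 and co-culture replicate 2, and at 0.8003 to 0.8243 between U373 and U87-MG arrays.

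The U373 arrays carried the transcripts of an astrocytic line. Of 20 astrocyte and glial stem markers with a probe, 11 exceeded the limit on each of the 6 arrays, among them GFAP, NES, SOX2 and SOX9. None of them passed the test between co-culture and monoculture. S100B, AQP4, OLIG2, ALDH1L1 and 4 other markers of the list were at background on every U373 array. PTPRC, AIF1 and ITGAM, which define leukocytes, were among the 8 of 11 leukocyte markers at background throughout. CD14, CD68 and CSF1R, also on that list, exceeded the limit on each of the 6 arrays. A list of 9 genes of U87-MG cells, among them CD74 and HLA-DRA, was at background on all 3 co-culture arrays. It had been chosen from these same arrays as genes at background in U373 cells. It is thus no independent check for RNA of the other line.

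The chemokine genes CXCL8, CXCL2 and CCL2, the cytokine gene IL1B, the NF-kB subunit RELB and the growth factor gene TGFA rose in U373 cells in co-culture. By limma, 12 of 10573 genes passed an adjusted p of 0.05. Of these, 9 were higher in co-culture (0.0851% of the tested genes) and 3 were lower (0.0284%). At an unadjusted p of 0.05 the counts were 638 higher and 377 lower. The 3 co-culture values lay above all 3 monoculture values in 681 genes (6.44%) and below them in 575 (5.44%), and all 12 genes past the test were among these. Counts of non-overlapping genes in the lists below are to be read beside these shares. The median log2 difference of all tested genes was 0.024. A level refers to the total RNA of a culture, so that a change in the share of cells in a given state and a change in RNA per cell cannot be told apart.

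CXCL8, the chemokine interleukin-8 that attracts neutrophils, stood at 7.66, 7.17 and 8.10 in monoculture replicates 1, 2 and 3 and at 12.22, 13.77 and 11.97 in co-culture replicates 1, 2 and 3. The lowest co-culture array was far above the highest monoculture array, and replicate 2 was the highest of all. The log2 difference was 5.01 ± 0.40 (SE, adjusted p = 2.96e-05), with 4.75 and 5.27 for its 2 probes. CXCL2, a second chemokine for neutrophils, was not above background in any monoculture (3.78, 3.64 and 4.29) and reached 6.32, 7.70 and 6.02 in co-culture. Against the background limit it was at least 2.91-fold higher in co-culture on this scale (adjusted p = 0.00585). These 2 genes were the tested members of a list of 7 neutrophil-attracting CXC chemokines.

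The promoters of both chemokines are shown because they hold a pattern that is part of the binding sequence of NF-kB. The pattern GGNNTTTCC was searched on both strands in the 250 bases before the start of each gene in RefSeq sequence (GRCh38.p14), where 8707 of the tested genes had a promoter. The matches are in capitals and the sequences read 5′ to 3′ along the gene. The CXCL8 promoter lies at chr4:73740319-73740568 on the plus strand, with a match whose first base is at -91 from the start. The CXCL2 promoter lies at chr4:74099196-74099445 on the minus strand, with matches at -77 and -53. The promoter of NFKBIA, the inhibitor IkB-alpha, is added as that of a known feedback gene (chr14:35404750-35404999, minus strand, matches at -242 and -81), and that of IL1B (chr2:112836780-112837029, minus strand) as that of a gene past the test without a match.
CXCL8: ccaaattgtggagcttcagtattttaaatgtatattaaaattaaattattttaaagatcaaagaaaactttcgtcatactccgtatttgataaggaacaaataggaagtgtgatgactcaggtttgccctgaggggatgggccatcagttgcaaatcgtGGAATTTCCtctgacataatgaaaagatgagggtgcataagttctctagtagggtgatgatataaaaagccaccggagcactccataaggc
CXCL2: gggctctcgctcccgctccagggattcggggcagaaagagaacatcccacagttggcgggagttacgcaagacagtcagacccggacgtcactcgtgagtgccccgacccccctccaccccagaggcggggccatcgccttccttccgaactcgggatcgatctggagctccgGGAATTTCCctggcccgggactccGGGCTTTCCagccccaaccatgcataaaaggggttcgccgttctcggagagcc
NFKBIA: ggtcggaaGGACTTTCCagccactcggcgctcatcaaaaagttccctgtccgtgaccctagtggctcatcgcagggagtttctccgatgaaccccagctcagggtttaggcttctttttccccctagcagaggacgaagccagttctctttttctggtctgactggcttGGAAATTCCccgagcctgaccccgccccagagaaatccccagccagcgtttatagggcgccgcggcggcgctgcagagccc
IL1B: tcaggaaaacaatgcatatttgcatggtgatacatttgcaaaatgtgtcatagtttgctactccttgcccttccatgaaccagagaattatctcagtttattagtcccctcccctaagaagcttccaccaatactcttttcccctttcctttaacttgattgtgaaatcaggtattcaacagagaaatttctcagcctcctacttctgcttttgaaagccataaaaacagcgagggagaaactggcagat
Of the 9 genes higher in co-culture, 6 had a promoter in the table and 2 of these, CXCL8 and CXCL2, held the pattern. None of the 3 lower genes held it, and 525 of all 8707 promoters did (6.03%). Among NF-kB feedback inhibitors and kinases it was in 4 of 15 promoters. A match is a description of these letters and does not show that a factor was bound in these cells. The lack of a match, as in IL1B, covers this pattern in these 250 bases only.

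CCL2, which attracts monocytes, rose on all 3 co-culture arrays by similar amounts. Its levels of 9.64, 9.71 and 9.31 in monoculture and 11.75, 11.80 and 11.28 in co-culture gave a log2 difference of 2.06 ± 0.18 (SE, adjusted p = 3.85e-05). It was the only one of 6 tested CC and interferon-inducible chemokines past the test, and the median of that list was -0.13. CXCL12, a chemokine for stem cells and lymphocytes, was at 6.11, 6.26 and 8.01 in monoculture and 5.86, 5.82 and 7.36 in co-culture, so that replicate 3 was the highest array of both groups and the groups overlapped.

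The cytokine genes were less even. IL1B, the secreted interleukin-1, was at 5.02, 4.66 and 5.84 in monoculture, above background on 2 of the 3 arrays, and at 6.55, 8.22 and 7.58 in co-culture. Its log2 difference was 2.27 ± 0.35 (SE, adjusted p = 0.019). IL1A, the other interleukin-1 gene, was at background in all monocultures (3.30, 3.50 and 3.98) and also in co-culture replicate 1 (4.58), with 7.72 and 5.36 in co-culture replicates 2 and 3. Its adjusted p was 0.152. IL6, which acts through STAT3, was at 7.22, 7.60 and 8.24 against 8.57, 10.20 and 9.10, without overlap and also short of the threshold (adjusted p = 0.171). Of 9 tested inflammatory cytokines and growth factors, 1 passed the test, 4 had co-culture values wholly above the monoculture values and none had them below. In each of these 4, co-culture replicate 2 was the highest array.

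**Figure D1:**
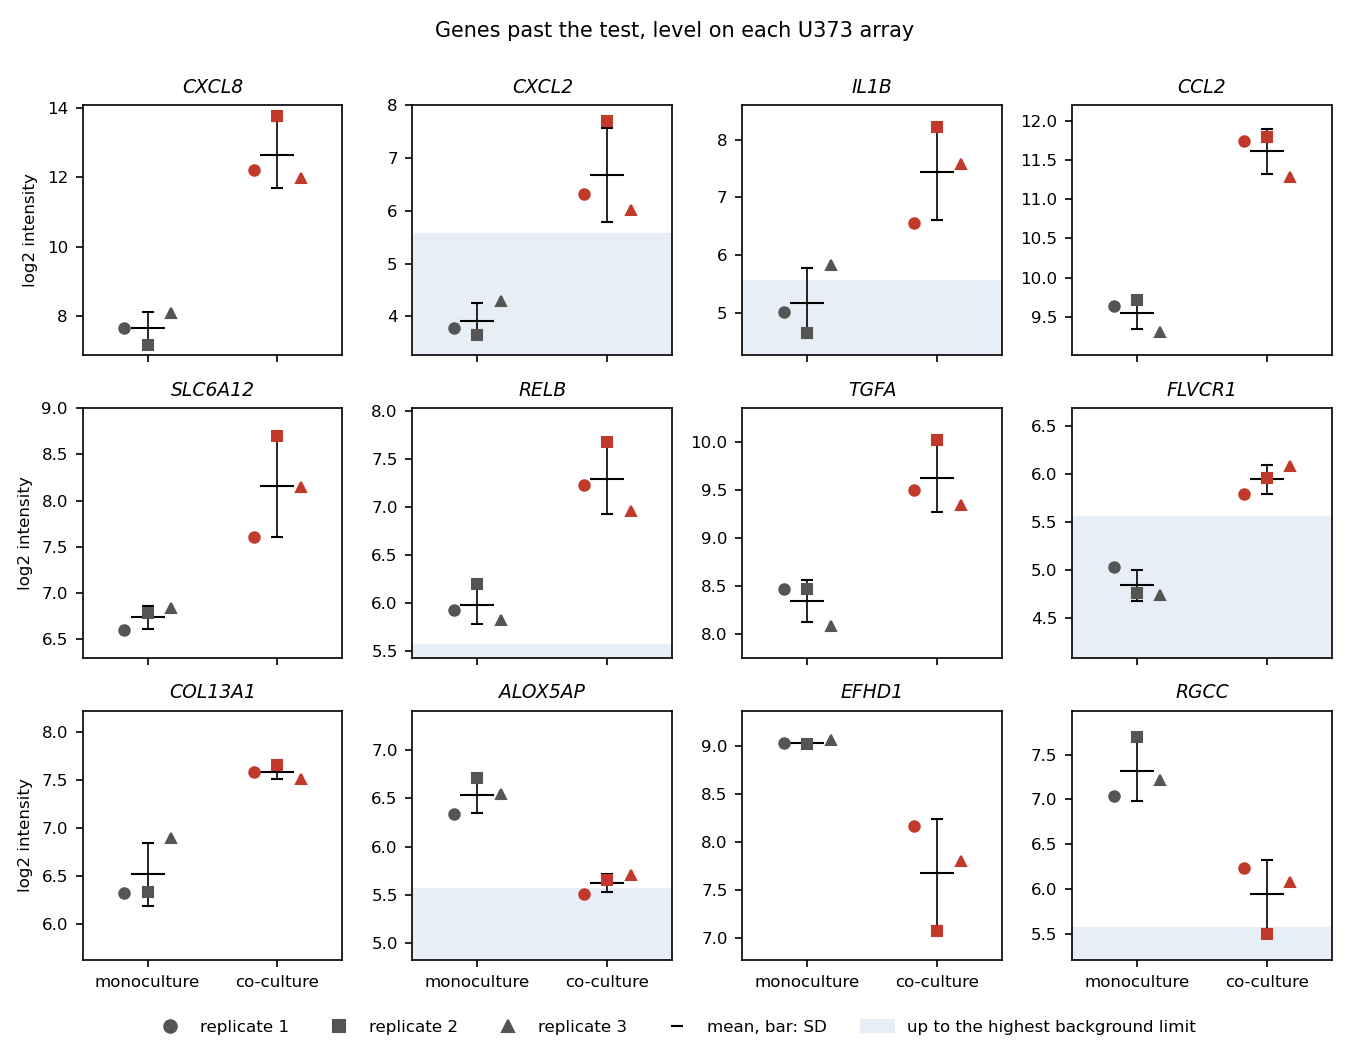
Levels (log2 intensity, vertical axis, a scale of its own in each panel) of the 12 genes past the test in U373 monoculture (grey) and U373 co-culture (red). Symbols are the 3 replicate arrays, horizontal marks the means and bars the SD, and the shaded band reaches up to the highest background limit of the 6 arrays, 5.56. In no panel do the groups overlap, and CXCL8 goes from 7.17 to 8.10 in monoculture to 11.97 to 13.77 in co-culture.

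All 4 tested NF-kB subunits were higher in co-culture by their means, and 1 of them passed the test. RELB, the subunit of the non-canonical branch, was at 5.92, 6.20 and 5.82 in monoculture and 7.23, 7.67 and 6.96 in co-culture, a rise of 1.31 ± 0.20 (SE, adjusted p = 0.0223). NFKB2 (log2 difference 0.65), NFKB1 (0.52) and RELA (0.30) did not pass the test. The value of NFKB2 is a mean of 3 probes, with 0.80 and 0.82 on those above background and 0.32 on a probe at background. In all 4 tested subunits the co-culture arrays lay above the monoculture arrays, and the median log2 difference was 0.58. Their median distance from the monoculture mean was 0.61, 0.74 and 0.40 on co-culture replicates 1, 2 and 3, so that replicate 1 was not the lowest in this list.

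None of 17 feedback inhibitors and kinases of NF-kB passed the test, 4 were wholly above the monoculture values and the list median was 0.24. TNFAIP3, which encodes the ubiquitin-editing inhibitor A20, was at 5.19, 5.59 and 5.84 against 6.57, 7.74 and 7.31 (log2 difference 1.67 ± 0.31, adjusted p = 0.0536). NFKBIZ (0.98) and NFKBIA (0.68) were the next in that list without overlap. BCL3, a nuclear partner of p50, was high on co-culture replicate 1 alone, at 9.48 against 8.57 and 8.73 on the other two and 8.40 to 8.59 in monoculture. IRAK2, a kinase that binds the interleukin-1 receptor complex, was at 6.76, 6.97 and 6.62 in monoculture and 7.64, 8.48 and 7.62 in co-culture (1.13 ± 0.23, adjusted p = 0.0891). It was the highest of 11 receptors and adaptors for interleukin-1 and tumor necrosis factor, whose median was 0.08.

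Of 15 other NF-kB target genes, none passed the test and 4 did not overlap in the upward direction. VCAM1, an adhesion molecule for leukocytes, was at 6.36, 6.62 and 6.49 against 7.62, 8.47 and 7.23 as the mean of its 3 probes (1.29 ± 0.24, adjusted p = 0.0536). When each probe was tested alone, 1 of the 3 passed (1.41 ± 0.24, adjusted p = 0.0404). PLAU (0.72), the plasminogen activator urokinase, and SOD2 (0.71), the mitochondrial superoxide dismutase, were among the non-overlapping genes. SOD2 had 0.85 and 0.87 on its probes above background and 0.40 on a probe at background. Of 31 tested interferon-stimulated genes, none passed and the median was -0.07. Wholly below the monoculture values lay 3 and above them 1, against 5.44% and 6.44% of all tested genes. ISG15 was at 8.25, 8.52 and 8.09 in monoculture and 7.98, 7.06 and 7.33 in co-culture (-0.83 ± 0.21, adjusted p = 0.163).

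Among growth factor genes, TGFA rose. It encodes a ligand of the EGF receptor and was at 8.47, 8.47 and 8.09 in monoculture and 9.50, 10.02 and 9.35 in co-culture (1.28 ± 0.22, SE, adjusted p = 0.0377). HBEGF, another ligand of that receptor, was at 8.71, 8.47 and 8.85 against 9.35, 10.32 and 9.23, without overlap and with an adjusted p of 0.281. EGFR itself had a log2 difference of 0.20 (adjusted p = 0.704) as the mean of 4 probes, and of 0.53 on the only probe above background on all 6 arrays. These were 3 of 7 tested members of the EGF receptor family and its ligands, of which 1 passed the test.

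Immediate early genes, which follow growth factor and stress signals within minutes, were higher by the mean in 24 of 25 tested members, and none passed the test. Their median log2 difference was 0.52, and 9 lay wholly above the monoculture values, as did 6.44% of all tested genes. FOSL1, an AP-1 subunit, was at 9.02, 8.59 and 8.69 in monoculture and 9.47, 10.42 and 9.97 in co-culture (1.19 ± 0.22, adjusted p = 0.0542). MYC was at 7.48, 7.54 and 7.73 against 8.46, 9.99 and 8.57 (1.42 ± 0.33, adjusted p = 0.149). FOS overlapped, since monoculture replicate 3 (5.53) was above co-culture replicate 1 (5.06). On co-culture replicate 2, 13 of the 25 genes were over 1 log2 unit above their monoculture mean. On replicate 3 there were 5 such genes and on replicate 1 there were none. CCND1, the cyclin of early G1, was one of the more even genes short of the threshold, with 11.07, 10.94 and 10.77 in monoculture and 11.70, 11.74 and 11.39 in co-culture (0.69 ± 0.15, adjusted p = 0.103).

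The other 3 genes past the test in the upward direction belonged to none of these groups. SLC6A12, a transporter of betaine and GABA, was at 6.60, 6.78 and 6.84 in monoculture and 7.61, 8.70 and 8.15 in co-culture (1.42 ± 0.24, SE, adjusted p = 0.034). The 4 other tested carriers and regulators of osmolytes had log2 differences of 0.20 to 0.49 and none passed. FLVCR1, a heme exporter of the plasma membrane that also carries choline, was above background on 1 of 3 monoculture arrays (5.03, 4.76 and 4.74) and on all co-culture arrays (5.79, 5.96 and 6.09), a rise of 1.10 ± 0.16 (adjusted p = 0.0181). It was the only one of 15 tested iron and heme genes past the test, and the median of that list was 0.01.

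COL13A1, a transmembrane collagen, was at 6.32, 6.33 and 6.89 in monoculture and 7.58, 7.65 and 7.51 in co-culture (1.07 ± 0.18, SE, adjusted p = 0.0321). Its 3 co-culture arrays were the closest among the genes past the test, with an SD of 0.07. Of 23 tested collagens, COL13A1 alone passed, 14 were lower by their means and the median was -0.09. COL1A1, the main fibrillar collagen, was at 12.45, 12.68 and 12.85 against 12.15, 12.35 and 12.23, without overlap in the other direction and short of the threshold (adjusted p = 0.433).

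Of the genes past the test, RGCC, EFHD1 and ALOX5AP fell. RGCC, a regulator of the cell cycle that responds to complement and TGF-beta, was at 7.04, 7.69 and 7.21 in monoculture and 6.23, 5.50 and 6.08 in co-culture (-1.38 ± 0.23, SE, adjusted p = 0.0331). EFHD1, a calcium-binding protein of mitochondria, was at 9.03, 9.02 and 9.06 in monoculture and at 8.17, 7.08 and 7.80 in co-culture (-1.35 ± 0.23, adjusted p = 0.034). Its monoculture values were nearly equal, and its co-culture values spread over more than 1 log2 unit. ALOX5AP, which presents arachidonate to 5-lipoxygenase for leukotriene synthesis, was at 6.34, 6.71 and 6.55 against 5.51, 5.65 and 5.70 (-0.91 ± 0.16, adjusted p = 0.034). LTC4S, the next enzyme for the cysteinyl leukotrienes, did not overlap in the same direction (-0.72, adjusted p = 0.403), and of 10 tested genes of arachidonate and prostaglandin metabolism 7 were higher by the mean.

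TXNIP had the lowest log2 difference of all tested genes and passed the test in some settings only. This arrestin, which binds thioredoxin and lowers glucose uptake, is known to be induced by glucose. It was at 7.27, 7.80 and 7.07 in monoculture and at 5.11, 4.25 and 4.53 in co-culture, where it was above background on replicate 1 alone (-2.75 ± 0.59, adjusted p = 0.103). With only the 6 U373 arrays in the fit it was 1 of 3 genes past the test, beside CXCL8 and CCL2 (adjusted p = 0.00578). Of the 4 related arrestins that were tested none passed, and their log2 differences were -0.08 to 0.54. ARRDC4 had a difference of -0.66 on its probe above background and of 0.50 on a probe at background on every array. DLX5, a homeobox factor, was at 9.80, 10.28 and 9.51 against 8.83, 8.43 and 8.32 (-1.34 ± 0.26, adjusted p = 0.0594). CEBPA, a factor of differentiation, was at 9.82, 9.50 and 9.33 against 9.13, 7.68 and 8.51 (-1.11 ± 0.27, adjusted p = 0.156).

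Of the hypoxia genes and glycolytic enzymes none passed the test. All 21 tested hypoxia genes had a positive log2 difference, with a median of 0.40. Of these, 7 lay wholly above the monoculture values, as did 6.44% of all tested genes. CA12, a carbonic anhydrase of the cell surface, was at 4.25, 5.02 and 5.17 in monoculture and 5.71, 6.59 and 5.97 in co-culture as the mean of its 2 probes (1.28 ± 0.25, adjusted p = 0.0594), of which 1 was above background in all cultures (0.92). VEGFA, the growth factor of blood vessels, was at 5.45, 5.55 and 5.49 against 5.91, 6.75 and 6.10 (0.76 ± 0.19, adjusted p = 0.175). This is the mean of 3 probes, with 1.15 and 1.12 on those above background and no difference on a probe at background. The hypoxia list also differed between monocultures, with medians of -0.26, 0.03 and 0.33 on replicates 1, 2 and 3 and of 0.26, 0.55 and 0.51 on the co-culture arrays of the same numbers. HK2, the inducible hexokinase, was at 5.98, 6.36 and 6.44 against 6.87, 7.03 and 7.03 (0.71 ± 0.16, adjusted p = 0.115), and the 17 glycolytic enzymes had a median of 0.17.

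The 3 co-culture arrays were uneven. A gene was counted as standing apart on an array when it lay over 1 log2 unit from both other arrays of the group and these were within 0.5 of each other. There were 62 such genes on co-culture replicate 1 (21 higher and 41 lower), 54 on replicate 2 (43 higher and 11 lower) and 22 on replicate 3 (7 higher and 15 lower). On the monoculture arrays there were 9, 39 and 33. Co-culture replicate 1 correlated more with monoculture replicates 1 and 2 (0.9908 and 0.9892) than with co-culture replicates 2 and 3 (0.9804 and 0.9817). This was not particular to replicate 1. Co-culture replicate 3 correlated at 0.9914 with monoculture replicate 3, and at 0.9870 and 0.9817 with co-culture replicates 2 and 1. Of all tested genes, 24 lay over 1 log2 unit above their monoculture mean on replicate 1, 245 on replicate 2 and 92 on replicate 3, and 15, 74 and 44 lay as far below.

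Genes of the ATF4 response set the co-culture arrays apart most clearly. ATF4 is the transcription factor that raises amino acid synthesis and import when translation is checked by amino acid shortage or by unfolded proteins. DDIT3, the factor CHOP, was at 7.80, 7.36 and 7.96 in monoculture and at 7.39, 11.75 and 9.22 in co-culture. Replicate 1 was thus within the range of the monocultures, replicate 3 was over 1 log2 unit above it and replicate 2 over 3 units. The same order held for CHAC1, which breaks down glutathione, with 3.90, 4.10 and 4.92 in monoculture, above background on 1 array, against 4.10, 7.82 and 6.16, above background on 2. ASNS, asparagine synthetase, was at 7.34, 7.62 and 7.89 against 7.67, 9.83 and 8.49, as the mean of 2 probes with log2 differences of 0.63 and 1.46. TRIB3, a pseudokinase induced by ATF4 and CHOP, was at 8.17, 8.55 and 8.21 against 8.35, 11.64 and 8.94.

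Over the 34 tested members of the ATF4 list, the median distance from the monoculture mean was -0.09 on co-culture replicate 1, 1.41 on replicate 2 and 0.45 on replicate 3. The monoculture arrays had -0.14, -0.01 and 0.23. On replicate 2, 24 of the 34 genes were over 1 log2 unit above their monoculture mean, on replicate 3 there were 3 and on replicate 1 there were none. None of the 34 passed the test between the groups, and 3 did not overlap. The list median was 0.55 with all arrays, 0.96 without co-culture replicate 1 and 0.16 without replicate 2.

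HSPA5, the chaperone BiP of the endoplasmic reticulum, was high on co-culture replicate 2 alone. It was at 10.03, 9.97 and 9.93 in monoculture and at 9.98, 11.94 and 10.02 in co-culture. The 23 tested genes of the unfolded protein response had medians of -0.15, 0.84 and 0.04 on co-culture replicates 1, 2 and 3. None passed the test, 4 lay wholly above the monoculture values, and 10 were over 1 log2 unit above their monoculture mean on replicate 2. HSPA6, an inducible HSP70, was at 8.50 on co-culture replicate 2 and between 4.74 and 5.09 on the 5 other arrays. The 20 tested heat shock genes had a median of -0.08 on that array and 2 of them, HSPA6 and HSPA1B, were over 1 log2 unit above their monoculture mean. HMOX1, heme oxygenase 1, was at 10.17 on that array and at 7.07 to 7.76 on the others.

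GDF15, a stress-induced cytokine of the TGF-beta family and a target of both CHOP and p53, combined both patterns. It was at 8.09, 8.70 and 8.26 in monoculture and at 9.27, 13.01 and 10.86 in co-culture, so that replicate 1 was above the monocultures but far below the other co-cultures. Its log2 difference of 2.70 ± 0.59 was short of the threshold (adjusted p = 0.103). Of 14 tested p53 targets GDF15 was the highest and none passed.

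**Figure D2:**
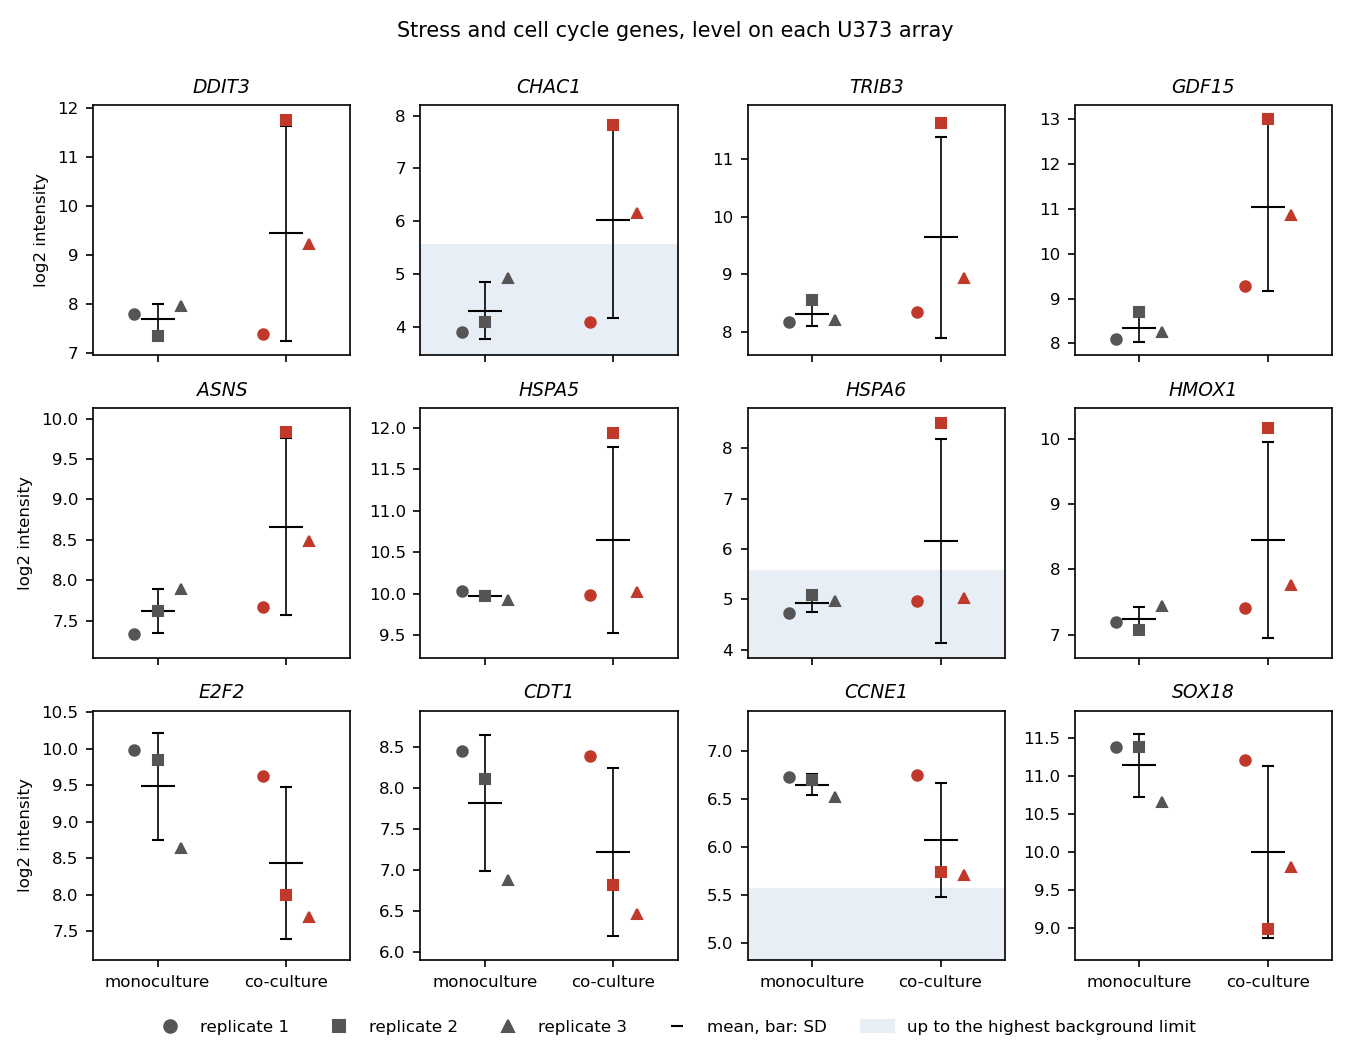
Levels (log2 intensity, vertical axis, a scale of its own in each panel) of 8 stress genes (upper 2 rows) and 4 genes low on co-culture replicates 2 and 3 (bottom row) in U373 monoculture (grey) and co-culture (red). Symbols are the replicate arrays, marks and bars the mean and SD, and the shaded band reaches up to the highest background limit. DDIT3 is at 7.39 on co-culture replicate 1 and at 11.75 on replicate 2, while E2F2 is at 9.63 on replicate 1 and at 7.99 and 7.70 on replicates 2 and 3.

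Some cell cycle genes split the same arrays in the other direction. E2F2, a transcription factor for entry into S phase, was at 9.98, 9.84 and 8.64 in monoculture and at 9.63, 7.99 and 7.70 in co-culture. Monoculture replicate 3 was low as well, and co-culture replicate 1 was within the monoculture range. CDT1, which loads the replicative helicase, was at 8.46, 8.11 and 6.88 against 8.39, 6.82 and 6.46. CCNE1, the cyclin E1 of the G1/S transition, was at 6.73, 6.69 and 6.52 in monoculture and at 6.75, 5.74 and 5.71 in co-culture. SOX18, a transcription factor of vessel development, showed the same split, at 11.38, 11.38 and 10.66 in monoculture and at 11.21, 8.99 and 9.80 in co-culture.

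Of 35 tested genes of DNA replication and G1/S, 29 were lower in co-culture by their means, with a median log2 difference of -0.15. None passed the test and none had groups that did not overlap. The list medians were 0.13, -0.33 and -0.23 on co-culture replicates 1, 2 and 3 and 0.19, -0.03 and -0.03 in monoculture. The 45 genes of mitosis had 0.08, -0.27 and -0.03 on the co-culture arrays and 0.14, -0.08 and -0.07 in monoculture. In that list co-culture replicates 1 and 3 were thus within the monoculture range. MKI67, the proliferation antigen, was at 7.33, 6.68 and 6.90 against 7.07, 6.26 and 6.53 (log2 difference -0.34, adjusted p = 0.605). All 10 tested histone genes were lower by the mean, with -0.02, -0.54 and -0.17 as list medians on the 3 co-culture arrays, and 2 of them did not overlap.

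**Figure D3:**
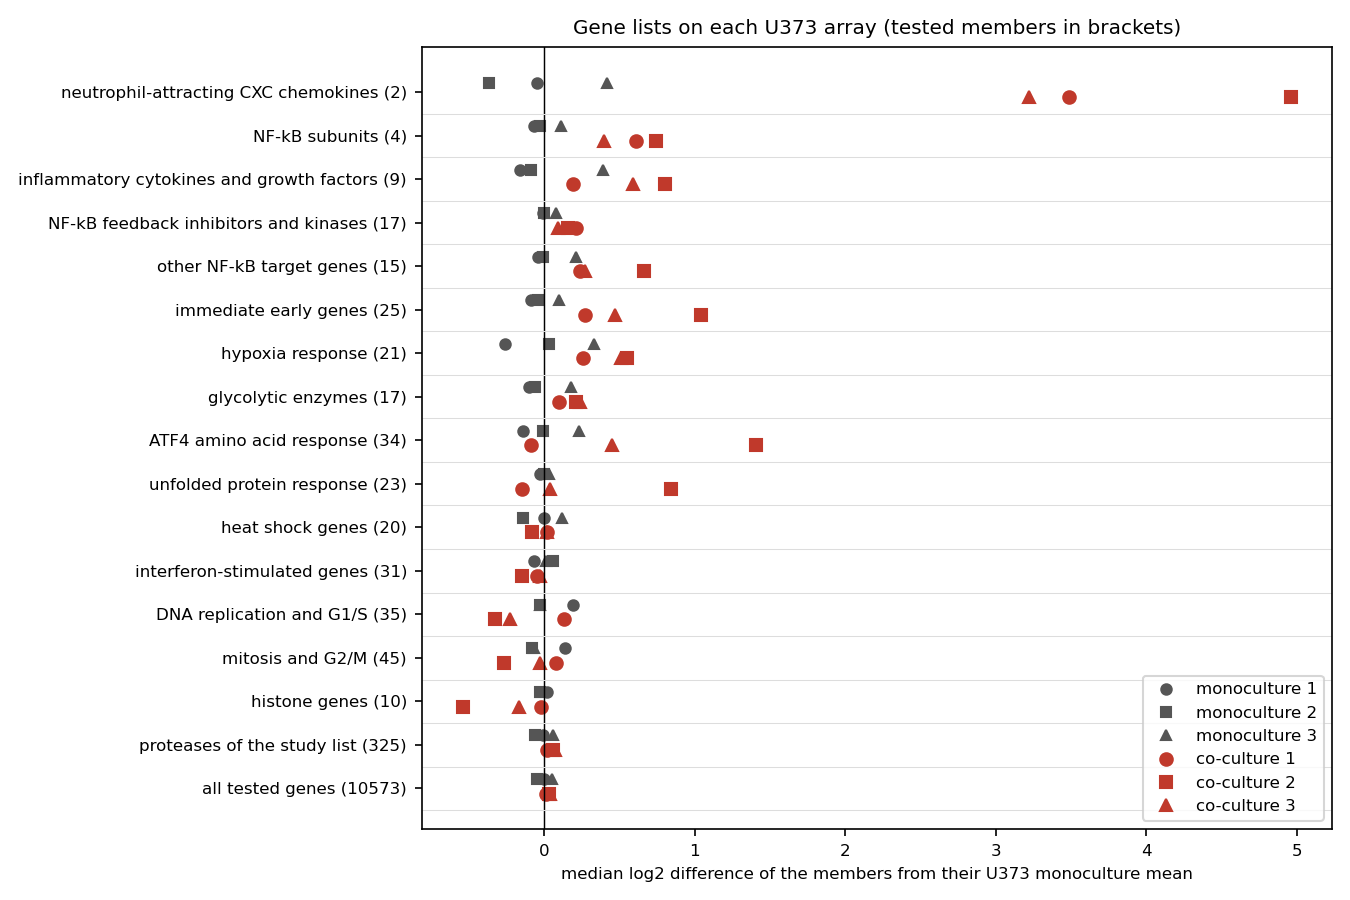
Median log2 difference of the members of 17 gene sets from their U373 monoculture mean (horizontal axis), on each of the 3 monoculture arrays (grey) and 3 co-culture arrays (red). Numbers in brackets are tested genes. The ATF4 list is at -0.09, 1.41 and 0.45 on co-culture replicates 1, 2 and 3, while the 4 NF-kB subunits are at 0.61, 0.74 and 0.40.

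Leaving out single arrays changed the number of calls. Without co-culture replicate 1, 159 genes passed by limma, 111 higher (1.05%) and 48 lower (0.454%), and all 12 genes named above were among them. Without co-culture replicate 2, 3 genes passed, which were CXCL8, CXCL2 and CCL2, and without co-culture replicate 3 there were 14, of which 8 were among the 12. The count was 4 without monoculture replicate 1, 6 without replicate 2 and 22 without replicate 3, with 4, 4 and 9 of the 12 among them. CXCL8 and CCL2 passed in all 24 other settings and CXCL2 in 22. The U87-MG arrays enter through the shared estimate of the spread. Without one of them the count was 4 to 14, with 4 for U87-MG monoculture replicate 1 and 8 for U87-MG co-culture replicate 3.

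The 159 genes that passed without co-culture replicate 1 included 10 of 34 tested ATF4 genes and 5 of 25 tested immediate early genes. All of these were higher, as were 1.05% of all tested genes. Replicate 1 was the array on which no member of either list was over 1 log2 unit above its monoculture mean. These counts are thus no independent support for the lists. DDIT3 then had a log2 difference of 2.78 (adjusted p = 0.0143, against 0.426 with all arrays) and CHAC1 2.68 (0.0131 against 0.392). GDF15 had 3.58 (0.000785 against 0.103) and MYC 1.69 (0.0259 against 0.149). E2F2 had -1.64 (0.0288 against 0.444) and TXNIP -2.99 (0.0365 against 0.103). DDIT3, CHAC1, GDF15 and E2F2 were among the genes on which replicate 1 lay farthest from the other co-cultures. Their calls without that array are therefore no independent support. GDF15, MYC and TXNIP passed in other settings as well, TXNIP among them with only the 6 U373 arrays. GDF15 and MYC missed the threshold without co-culture replicate 2, without co-culture replicate 3 and with only the 6 U373 arrays (limma adjusted p of 0.12 to 0.554). DDIT3, CHAC1 and E2F2 passed in no other limma setting that was run. Outside the rule for named genes and chosen after their values were seen, the phosphodiesterase PDE4D had 2.01 (0.0129), the sphingosine-1-phosphate receptor S1PR1 1.66 (0.0143), the cholesterol exporter ABCA1 1.55 (0.0129), the amino acid transporter SLC7A10 -1.53 (0.0143) and the retinoic acid binding protein CRABP2 -1.39 (0.0129). In each of these 5 genes co-culture replicate 1 was nearer to the mean of the monocultures than the other co-cultures were. The state of the cultures that accompanied these levels was not measured, and its part in the calls was not tested.

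**Figure D4:**
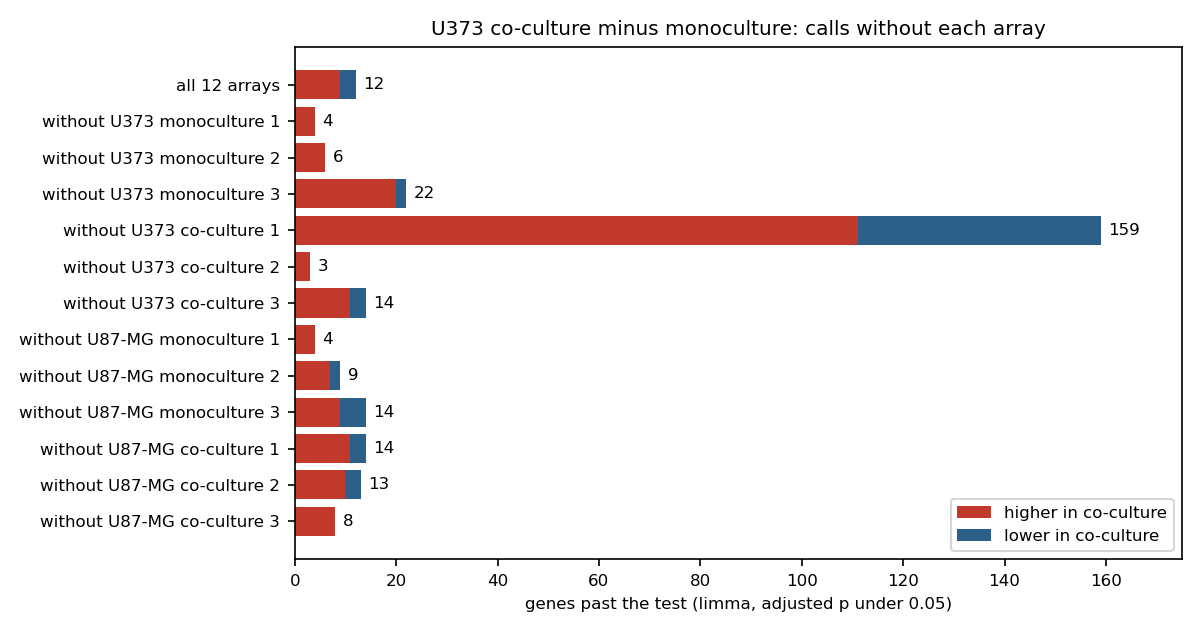
Number of genes past the test between U373 co-culture and U373 monoculture (horizontal axis, limma with an adjusted p under 0.05) with all 12 arrays and with each array left out in turn, split into higher (red) and lower (blue) in co-culture. The count is 12 with all arrays, 159 without U373 co-culture replicate 1 and 3 without U373 co-culture replicate 2.

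Proteases, which the study was designed to survey, did not pass the test in this comparison. Of 667 proteases on its list, 593 had a named probe and 325 were tested. Their median log2 difference was 0.04. Of the 325, 27 were wholly above and 12 wholly below the monoculture values, against 6.44% and 5.44% of all tested genes. Without co-culture replicate 1, 6 of them passed in the upward direction, against 1.05% of all tested genes. PAPPA, a metalloprotease that cleaves IGF binding proteins, came nearest to the threshold, with 5.68, 5.80 and 5.47 in monoculture and 6.97, 7.72 and 6.53 in co-culture (1.42 ± 0.26, adjusted p = 0.0523). PLAUR, the receptor of urokinase, was at 7.51, 7.75 and 8.14 against 8.45, 8.61 and 8.49 (0.72 ± 0.15, adjusted p = 0.103). F3, tissue factor, was at 5.69, 5.47 and 5.70 against 6.33, 7.15 and 6.30 (0.97 ± 0.20, adjusted p = 0.097). CTSK, cathepsin K, was at 5.83, 5.65 and 5.81 against 5.79, 4.87 and 5.13, so that co-culture replicate 1 was within the monoculture range (adjusted p = 0.458). Of 32 tested protease inhibitors none passed. TIMP3, an inhibitor of metalloproteinases, was at 7.25 and 7.21 on co-culture replicates 1 and 3 and at 8.94 on replicate 2, all above 6.45 to 7.08 in monoculture.

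The same comparison in U87-MG cells, the partner line on the other side of the membrane, gave 0 genes past the test by limma, against 739 at an unadjusted p of 0.05. CXCL8 had a log2 difference of 0.94 there (adjusted p = 0.702), CXCL2 0.85, CCL2 0.69 and IL1B 0.49. The background limits of the U87-MG arrays were 4.40 to 5.07. CCL2, with U87-MG means of 3.97 and 4.66, was thus near or under background in that line. The same held for SLC6A12, EFHD1, ALOX5AP and RGCC, with means of 3.17 to 4.58. For these genes the U87-MG difference does not measure a lack of response. U87-MG monocultures started from other levels than U373 monocultures, with means of 10.20 against 7.65 for CXCL8, 6.40 against 3.90 for CXCL2, 12.42 against 5.18 for IL1B and 3.97 against 9.55 for CCL2. The difference between the responses of the lines was tested for every gene, and it passed for CXCL8 alone (4.07, adjusted p = 0.0364, 0.00946% of the tested genes). With other settings this adjusted p ranged from 0.00942 to 0.27 and missed the threshold in 9 of 17. For CCL2, RELB and TGFA the adjusted p of the difference was 0.213, 0.359 and 0.452, so that an unequal response of the lines was not shown for them. The median of the ATF4 list was 0.06 in U87-MG co-culture, and that of the immediate early genes 0.03.

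**Figure D5:**
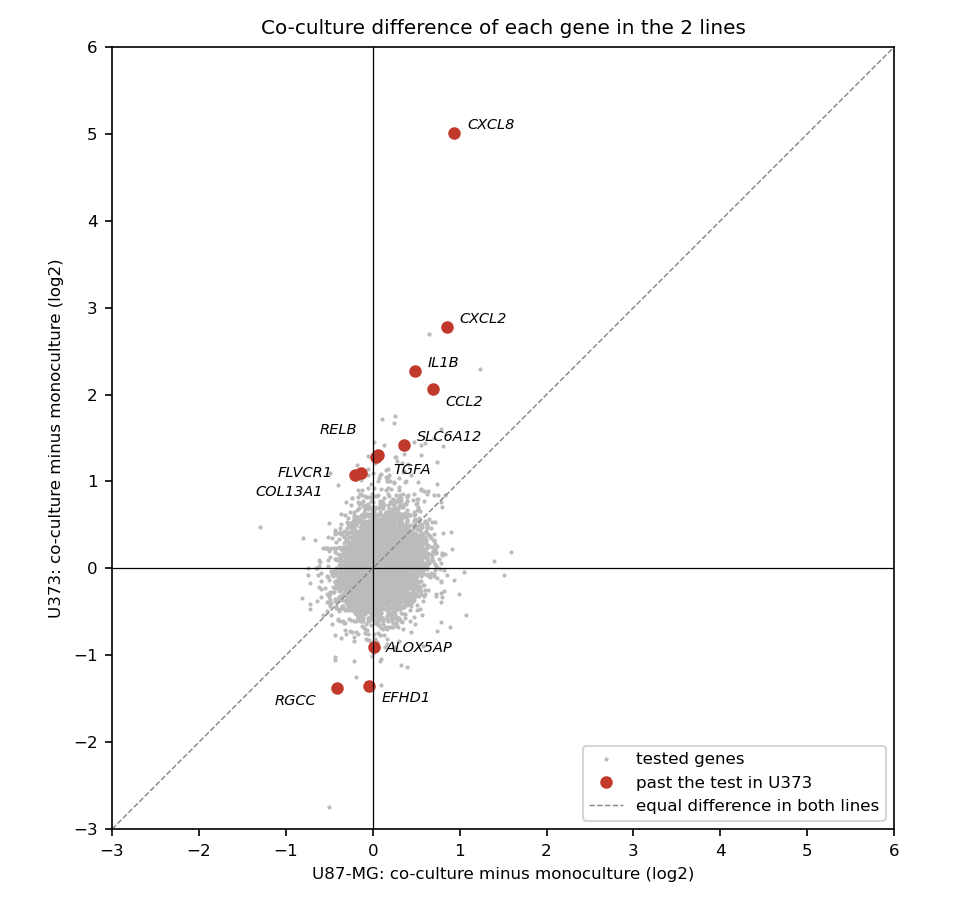
Log2 difference between co-culture and monoculture in U373 (vertical axis) and in U87-MG (horizontal axis) for the 10573 tested genes (grey) and the 12 genes past the test in U373 (red, named). The dashed line marks equal differences, and CXCL8, at 5.01 in U373 and 0.94 in U87-MG, lies farthest above it. CCL2, SLC6A12, EFHD1, ALOX5AP and RGCC were near or under background in U87-MG.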

How the data were processed

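Total RNA of 12 cultures was measured on Illumina HumanWG-6 v3 BeadChips. The deposited values are BeadStudio intensities on a natural log scale that the authors normalized by variance stabilization in R with lumi and limma. They run from 0.93 to 10.27, and the base was taken as natural because the highest value is near the natural log of the largest signal of the scanner. They were converted to log2, and another base would multiply all differences by a common factor without changing a test. A deposited table of non-normalized signals has 24 columns (12 of signals) whose names match no label, and it was not used. Slides and scans are not given in the sources used here.

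Of 48803 probes, 27578 were named for 1 gene by the platform annotation, 13 for several and 21212 for none. Symbols were updated by gene ID from RefSeq (GRCh38.p14), and the probes of a gene were averaged. The background limit of an array was the mode of its values plus 3 SD, the SD being taken from the values below the mode. Means of the 4 groups were fitted in limma 3.58.1 (R 4.3.3) on 12 arrays, with Benjamini-Hochberg adjustment over 10573 genes at 0.05. All p-values printed as adjusted p are from this limma test, two-sided. They rest on a spread between biological replicates that is pooled over the 4 groups, U87-MG included, and drawn toward that of all genes. The spread of the U373 replicates of a gene alone can thus be smaller or larger. The limma step alone was tested on simulated arrays with known changes. Their noise was independent between genes and arrays, so they held no array-wide deviations like those of the co-culture arrays. Named genes were those past the test, the 10 highest and 10 lowest of those that did not pass without overlap, up to 6 members of each gene list by absolute difference, 10 preset genes and, for each U373 array, the 5 highest and 5 lowest genes. Other genes are said to be chosen after their values were seen. The members and gene lists were chosen with earlier results of these data known, and the protease list is that of the study. Alternatives were other arrays, background limits, filters, probe rules, normalization, variance models, array weights, a replicate block, each array left out, and the rank product test with 100 permutations, a method of the study. Leaving out a U87-MG array and the block on the 6 U373 arrays were chosen after seeing the data.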

Additional observations from a re-analysis of the deposited data

Results flagged for a closer look

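The response of CXCL8 differed between the lines by 4.07 on the log2 scale by limma (adjusted p = 0.0364), higher in U373, where all 3 co-culture arrays were above all 3 monoculture arrays. This was the only gene past the test of the difference, against 666 at an unadjusted p of 0.05.

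Probes that the annotation names for no gene were outside the gene comparison. When each of 16422 probes above background was tested alone by limma, 18 passed and 5 of these were unnamed, all higher in co-culture without overlap. Probe ILMN_1661861 was at background in monoculture (3.78, 3.34 and 3.62) and at 7.45, 9.74 and 7.06 in co-culture (log2 difference 4.51, adjusted p = 0.000598). Probe ILMN_1682717 was at 6.29 and 7.26 on monoculture replicates 2 and 3 and lower on replicate 1, against 7.99, 9.66 and 9.06 in co-culture (2.39, adjusted p = 0.0171). Probe ILMN_1805701 was at background in monoculture (3.47, 2.75 and 3.89) and at 5.34, 6.66 and 4.99 in co-culture (2.29, adjusted p = 0.0404). In these 3 probes co-culture replicate 2 was the highest array. Probe ILMN_1783840 had a log2 difference of 1.33 (adjusted p = 0.0225) and probe ILMN_1776181 one of 1.31 (adjusted p = 0.0171).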

How the results depend on the processing

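The number of genes past the test in U373 was 12. It was 3 with only the 6 U373 arrays (CXCL8, CCL2 and TXNIP), 3 without a filter on dim genes, 21 with a trended and robust variance, 97 with array weights and 51 by rank product. With the replicate block it was 53, and with the replicate block on only the 6 U373 arrays 3. Leaving out 1 array at a time gave 3 to 159. The other settings gave 10 to 18. Array weights were 0.505 for co-culture replicate 1 and 2.51 for monoculture replicate 1. The count for the difference between the lines, 1 gene, was 0 with the trended variance, 0 without a filter, 3 with the replicate block (CXCL8, CCL2 and, chosen after its values were seen, FGD3) and 0 to 2 with 1 array left out. The cause of these shifts was not tested.

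Same-numbered U373 arrays deviated from their group means with correlations of 0.193, -0.102 and 0.560 for replicates 1, 2 and 3. Their levels correlated at 0.9908, 0.9714 and 0.9914, the last being the highest of all pairs and the second the lowest. The labels give no pairs, so the main test took none. An effect shared by same-numbered arrays was not tested. CXCL8 and CCL2 passed in all 24 settings. CXCL2 missed the threshold in the 2 fits on only the U373 arrays, with an adjusted p of up to 0.13 by limma. The other genes past the test lost the call in 5 (FLVCR1) to 12 (EFHD1 and TGFA) settings. None of the 12 changed direction. With 1 array left out the difference of CXCL12 ranged from -0.96 to 0.16, turning sign without monoculture replicate 3. That of HSPA1B ranged from -0.13 to 0.85 and that of ARRDC4 from -0.21 to 0.03, both turning sign without co-culture replicate 2. ALOX5AP was the only gene past the test with a difference of under 1 log2 unit, and levels at background give only bounds.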

Other observations

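The 19 tested genes of sterol synthesis had a median log2 difference of -0.02, the 10 tested metallothioneins -0.07 and the 12 tested cysteine cathepsins and cystatins 0.01, and none passed the test. Of 17 tested targets of the antioxidant factor NRF2 none passed and the median was 0.01. Wholly below the monoculture values lay 4, against 5.44% of all tested genes. HMOX1, one of these targets, was at 10.17 on co-culture replicate 2 alone. CRYAB, a small heat shock protein that is abundant in astrocytic tumors, was at 14.13, 14.15 and 13.91 in monoculture and at 13.52, 13.58 and 13.48 in co-culture. The groups did not overlap, but CRYAB did not pass the test (-0.54 ± 0.52, SE, adjusted p = 0.761). PTGER4, a receptor of prostaglandin E2, was at 6.75, 6.65 and 6.02 against 7.07, 7.57 and 6.93 (adjusted p = 0.268). IGF1R, the receptor of insulin-like growth factors, was at 5.23, 4.78 and 5.68 against 5.71, 6.08 and 6.36 (adjusted p = 0.312). Its gap was narrow, with replicate 3 highest in both groups. GFAP, the intermediate filament of astrocytes, was at 9.13, 9.88 and 9.55 in monoculture and at 9.72, 8.49 and 8.96 in co-culture, so that its lowest value was on co-culture replicate 2.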
